A study of Mus musculus with 4 samples.

Results

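The S100 genes encode a family of small proteins, most of which bind calcium. Here 10 of them, S100a1, S100a4, S100a6, S100a8, S100a9, S100a10, S100a11, S100a13, S100a16 and S100b, were described in mouse hearts after pressure overload. Members were found by the RefSeq transcript that each array probe is named by. This gave 13 probes for the 10 genes, out of 55681 probes and 21658 named genes on the arrays. The hearts came from male mice subjected to transverse aortic constriction (TAC), a surgical narrowing of the aorta that overloads the left ventricle, or to a sham operation. Hearts were collected at 2 weeks or at 8 weeks, which the study chose as a stage of hypertrophy and a stage of failure. Mouse age is labeled as 10 weeks for the 2-week hearts and 16 weeks for the 8-week hearts, whereas the study's methods give 12 weeks at surgery. The methods name C57BL/6J as the strain, and no transgene or drug is given for any of the 4 groups. Each group is 1 array that carries heart RNA pooled from 4 to 6 mice. Differences between single mice are thus hidden in the pools, no test across replicates was possible, and every difference given here is between 2 pools.

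S100 proteins pair up as dimers, and each subunit carries loops of the EF-hand type, which bind calcium in most but not all members. On binding calcium, most members open a surface that grips target proteins and so act as calcium sensors inside the cell. Some are also released, and S100a8 and S100a9, which together form calprotectin, are released by neutrophils and monocytes and act on the innate immune receptors TLR4 and RAGE. S100a1 is the S100 protein best known from cardiomyocytes, where it acts on calcium cycling of the sarcoplasmic reticulum. S100a4, S100a6, S100a10 and S100a11 are known from fibroblasts, endothelium and macrophages, and S100b from glial cells.

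Apart from S100b, which lies on chromosome 10, the members lie on chromosome 3. Start sites from RefSeq (build GRCm38.p6) were used here for 9 of the 10 members, all but S100a10, and the 100 bases in front of them were searched for 3 motifs on both strands. The letters TATAAA, the core of a TATA box, occurred in 5.56% of all 32851 RefSeq promoters in this window and in those of S100a4 and S100a8. In S100a4 they lay 31 to 26 bases before the start, and in S100a8 30 to 25 bases before it. The same letters lay at bases 1 to 6 after the annotated start of S100a9. TGANTCA, the binding motif of the AP-1 factors, occurred in 2.73% of all promoters in the shorter window and in that of S100a11, 38 to 32 bases before the start. TTGCNNAA, part of the C/EBP motif, was in 3.43% of all promoters and in none of the members in this window. In the longer window of 250 bases before to 50 after the start, TTGCNNAA also occurred in S100a9, 236 to 229 bases before the start, and TGANTCA in S100a16, 192 to 186 bases before 1 of its start sites, and again in S100a11, 136 to 130 bases before the start. In this window 13.6% of all promoters held TATAAA, 7.81% TGANTCA and 10.8% TTGCNNAA. A match is a description of letters and not of binding. The sequences are shown 5′ to 3′ along each gene, with matches in capitals, for the gene pair that differed most after TAC (S100a8 and S100a9), for the other genes with a match and for S100a1 as the cardiomyocyte member. They are chr3:90668971-90669070 (plus strand) for S100a8, chr3:90695722-90695821 (minus) for S100a9, chr3:90603670-90603769 (plus) for S100a4, chr3:93520396-93520495 (plus) for S100a11 and chr3:90514331-90514430 (minus) for S100a1.
S100a8: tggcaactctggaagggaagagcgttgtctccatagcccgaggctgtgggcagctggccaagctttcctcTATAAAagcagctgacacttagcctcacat
S100a9: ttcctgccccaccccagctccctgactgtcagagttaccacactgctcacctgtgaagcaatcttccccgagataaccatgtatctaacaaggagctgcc
S100a4: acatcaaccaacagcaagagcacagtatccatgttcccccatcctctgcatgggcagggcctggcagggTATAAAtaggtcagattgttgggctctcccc
S100a11: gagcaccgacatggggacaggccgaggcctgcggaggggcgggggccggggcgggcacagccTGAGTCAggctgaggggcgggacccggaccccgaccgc
S100a1: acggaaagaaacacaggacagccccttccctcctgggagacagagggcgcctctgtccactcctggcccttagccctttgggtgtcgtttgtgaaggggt

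Signals are given as multiples of the 75th percentile of the same array. On this scale arrays can be compared for 1 probe but not probes with each other. Signals summed over a list of markers are therefore weighted toward the brightest probes, and they include probes not well above background. Such sums do not measure the amount of a cell type. By the scanner software, 54.7% to 58.5% of the probes of each array stood well above background, and all 13 member probes were so on all 4 arrays, with no saturated or outlier spot. As a check of the labels, the hypertrophy genes Nppa, Nppb, Myh7 and Acta1 were over 2-fold higher after TAC at both times. All 6 cardiomyocyte markers were well above background on every array. The software's own error was 10% to 12% of the signal for the member spots. Between 2 spots of the same probe on an array, the log2 ratio had an SD of 0.29 below a log2 signal of -2, 0.16 between -2 and 0, 0.10 between 0 and 2, 0.09 between 2 and 4, and 0.08 above 4. This covers measurement within an array and not the spread between mice.

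After TAC the members fell into 4 kinds. S100a8 and S100a9 were over 2-fold higher at both times, S100a4, S100a6, S100a10 and S100a11 were 1.29-fold to 1.54-fold higher, S100a1, S100a13 and S100a16 differed by at most 1.12-fold, and S100b was lower. Of the 10 members, 2 were over 2-fold higher at 2 weeks, where 2.4% of the 15354 genes measured on either array of the pair were, and 2 at 8 weeks, where 3.26% of 15416 genes were. None was over 2-fold lower, against 1.19% of genes at 2 weeks and 2.05% at 8 weeks. At a threshold of 1.5-fold, 2 members were higher at 2 weeks (6.76% of genes) and 3 at 8 weeks (7.24% of genes), while 1 was lower at 2 weeks (3.33% of genes) and none at 8 weeks (5.62% of genes). The median log2 change of the members was 0.38 at 2 weeks and 0.54 at 8 weeks, compared with 0.00 and -0.01 over all measured genes. Between the 2 sham pools the median of the members was -0.04, compared with 0.03 over all genes, and no member differed over 1.5-fold, where 3.8% of genes were higher and 2.29% lower at 8 weeks.

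**Figure D1:**
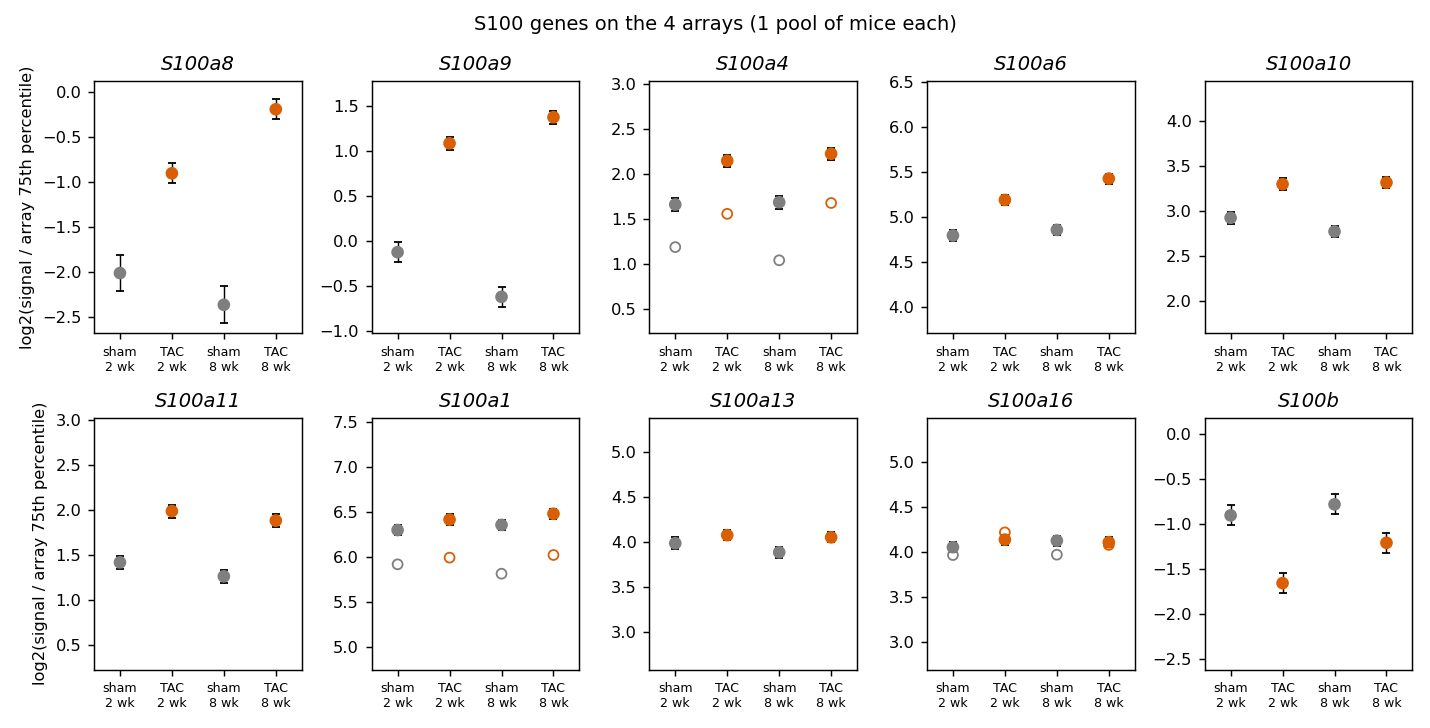
Each panel shows 1 S100 gene, with log2 of the signal over the array's 75th percentile for the 4 arrays (gray, sham; orange, TAC) and the same height of axis in all panels. Filled points are the probe used, with bars of 1 SD between spots of a probe at that signal, and open points are a second probe. Both TAC arrays lie well above both sham arrays for S100a8 and S100a9, by less for S100a4, S100a6, S100a10 and S100a11, and below them for S100b.

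S100a8 and S100a9 are the calprotectin subunits. The signal of S100a8 was 0.248 in sham and 0.536 in TAC hearts at 2 weeks, and 0.195 in sham and 0.877 in TAC hearts at 8 weeks. Both TAC values lay above both sham values. This corresponds to a 2.16-fold difference at 2 weeks and 4.51-fold at 8 weeks, with log2 changes of 1.11 and 2.17. S100a9 had 0.919 in sham and 2.13 in TAC hearts at 2 weeks, and 0.652 in sham and 2.60 in TAC hearts at 8 weeks. It showed the same order of arrays, with the lowest signal in sham hearts at 8 weeks and the highest in TAC hearts at 8 weeks. The difference was 2.31-fold at 2 weeks and 3.99-fold at 8 weeks, with log2 changes of 1.21 and 2.00. Of the 14581 genes measured on both arrays at 8 weeks, 0.219% had a change as high as that of S100a8 and 0.274% as high as that of S100a9. At 2 weeks these shares were 0.673% and 0.541% of 14419 genes. The S100a8 probe was dim, with log2 signals from -2.36 to -0.19. After normexp background correction and quantile normalization its log2 change was 0.61 at 2 weeks, which is under 2-fold, and 1.30 at 8 weeks, whereas S100a9 kept 1.01 and 1.72. In such RNA of heart tissue, fewer or more cells of a type and less or more RNA per cell cannot be told apart.

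Part of the difference between the times for this gene pair came from the sham pools. The log2 change of S100a8 was larger by 1.06 at 8 weeks than at 2 weeks, of which 0.71 was the difference between the TAC pools and the rest the lower sham signal at 8 weeks. For S100a9 the change was larger by 0.79, of which 0.29 was between the TAC pools. Sham hearts at 8 weeks were 1.28-fold lower than sham hearts at 2 weeks for S100a8 and 1.41-fold lower for S100a9. Only 4.16% and 1.89% of 14355 genes measured in both sham pools had so low a difference. For the dim S100a8 probe this was -0.35 on the log2 scale, where the SD between spots was 0.29 at that signal. With 1 pool per group, the difference between the times was not tested.

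Among the 14247 genes measured on all 4 arrays, the pattern of each was compared by the Euclidean distance between the 4 log2 signals after subtraction of their mean. The genes nearest to S100a8 were Cnksr1 (distance 0.11), Enpp1 (0.26) and Mfap5 (0.29), and S100a9 was at rank 6 with 0.32. The genes nearest to S100a9 were Mfap5 (0.14), Fibin (0.21) and Col5a2 (0.22), with S100a8 at rank 7. With 4 points these distances are a description only.

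S100a4, also known as fibroblast-specific protein, acts on nonmuscle myosin. Its signal was 3.16 in sham and 4.42 in TAC hearts at 2 weeks, and 3.21 in sham and 4.67 in TAC hearts at 8 weeks. The 2 sham pools differed by 0.03 on the log2 scale, and TAC was higher by 0.49 and 0.54. The second probe of S100a4 differed by 0.37 at 2 weeks and by 0.64 at 8 weeks on the log2 scale. S100a6, or calcyclin, is linked to proliferating cells. It had 27.8 in sham and 36.5 in TAC hearts at 2 weeks, and 29.0 in sham and 43.1 in TAC hearts at 8 weeks. The log2 changes were 0.40 and 0.57, and the signal of the TAC pool at 8 weeks exceeded that at 2 weeks by 0.24.

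S100a10 and S100a11 bind annexins at membranes, S100a10 chiefly annexin A2 and S100a11 chiefly annexin A1. S100a10 had 7.61 in sham and 9.86 in TAC hearts at 2 weeks, and 6.85 in sham and 9.98 in TAC hearts at 8 weeks. The log2 changes were 0.37 and 0.54, while the TAC pools of the 2 times differed by 0.02. S100a11 had 2.67 in sham and 3.96 in TAC hearts at 2 weeks, and 2.40 in sham and 3.68 in TAC hearts at 8 weeks. Its log2 changes of 0.57 and 0.62 were the largest of these 4 genes, with 1.54-fold at 8 weeks. For all 4 genes both TAC arrays lay above both sham arrays, and each change exceeded the SD between spots at that signal. Of genes measured on both arrays, between 4.48% and 10.3% had as high a change at 2 weeks and between 4.80% and 6.27% at 8 weeks. The lowest share at each time was that of S100a11, which lay just beyond the 95th percentile.

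S100a1, S100a13 and S100a16 differed little over the 4 arrays, although both TAC arrays lay above both sham arrays for S100a1 and S100a13. On the probe used, each change of S100a1 and S100a13 also exceeded the SD between spots at that signal. However, these changes were 1.06-fold to 1.12-fold, about the size of the software's own error of 10% to 12% of the signal. The second S100a1 probe changed by less than that SD at 2 weeks (0.07 against 0.08). S100a1, the cardiomyocyte member, had 78.9 in sham and 85.6 in TAC hearts at 2 weeks, and 82.1 in sham and 89.5 in TAC hearts at 8 weeks. Its log2 change was 0.12 at both times, and 0.07 and 0.21 with the second probe. About 30% of measured genes had as high a change (29.7% at 2 weeks and 29.8% at 8 weeks). S100a13, which takes part in the release of FGF1, had 15.8 in sham and 16.9 in TAC hearts at 2 weeks, and 14.8 in sham and 16.6 in TAC hearts at 8 weeks. Its log2 changes were 0.09 and 0.17. S100a16, a widely expressed member, had 16.6 in sham and 17.6 in TAC hearts at 2 weeks, and 17.4 in sham and 17.2 in TAC hearts at 8 weeks. The log2 change of S100a16 was 0.08 at 2 weeks and -0.02 at 8 weeks, and its second probe gave 0.25 and 0.11. The sign at 8 weeks turned under 4 of 7 alternatives, with values from -0.06 to 0.15.

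S100b was the 1 member that was lower after TAC at both times. Its signal was 0.532 in sham and 0.316 in TAC hearts at 2 weeks, and 0.580 in sham and 0.431 in TAC hearts at 8 weeks. Both TAC values lay below both sham values, and the sham pools differed by 0.12 on the log2 scale. TAC hearts were 1.68-fold lower at 2 weeks and 1.34-fold lower at 8 weeks, with log2 changes of -0.75 and -0.43. At 2 weeks 1.28% of measured genes had as low a change and at 8 weeks 7.76% had. After normexp correction the log2 changes were -0.31 and -0.25. In the heart, glia of the nerves are a known source of S100b. Of 6 Schwann cell markers, 5 were well above background on all arrays and 4 of these were lower after TAC at each time, with log2 changes of -0.43 and -0.39 for Sox10 and -0.43 and -0.62 for Gfra3, whereas Mbp had 0.56 and 0.29. The summed signal of the 6 markers was 3.18 in each sham pool, 2.44 in TAC hearts at 2 weeks and 2.17 at 8 weeks. Fat cells also express S100b, and of 6 adipocyte markers the defining genes Adipoq, Plin1, Cidec and Lep were not well above background on any array, while Retn had log2 changes of -0.42 and -0.68 and Fabp4 had 0.23 and -0.01. The part of these markers in the S100b result was not tested.

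**Figure D2:**
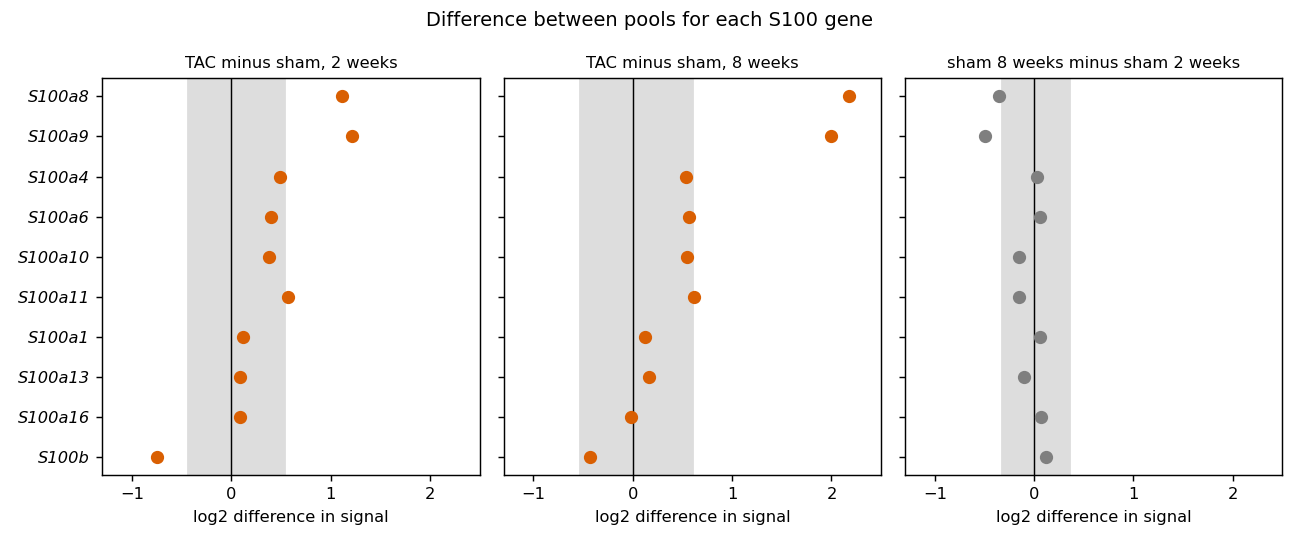
Log2 difference between 2 pools for the 10 S100 genes, with TAC minus sham at 2 weeks (left) and 8 weeks (middle) and the difference between the sham pools (right). The gray band holds the 5th to 95th percentile of all genes measured on both arrays. S100a8 and S100a9 lie far outside it after TAC at both times, S100b lies below it at 2 weeks, S100a11 lies just beyond its upper edge at both times, and the sham pools also differ in S100a8 and S100a9, toward lower signals at 8 weeks.

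The members on chromosome 3 were then set in their RefSeq order together with the other S100 genes of that chromosome. Neighbors did not share 1 change. S100a5, which lies between S100a4 and S100a6, changed little on the log2 scale, with 0.03 at 2 weeks and -0.18 at 8 weeks, against 0.49 and 0.54 for S100a4 and 0.40 and 0.57 for S100a6. S100a2 had 0.18 and -0.05, and S100a3 had -0.12 and -0.17. S100a8 and S100a9 are next to each other on opposite strands, as are S100a1 and S100a13 at the start of the order, and each of these pairs had similar changes. S100a10 and S100a11, at the end of the order, had changes close to those of S100a4 and S100a6. S100a7a and S100a14 were not well above background on any array, nor was S100z, which lies elsewhere. S100a7l2 fell short of this on at least 1 array.

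**Figure D3:**
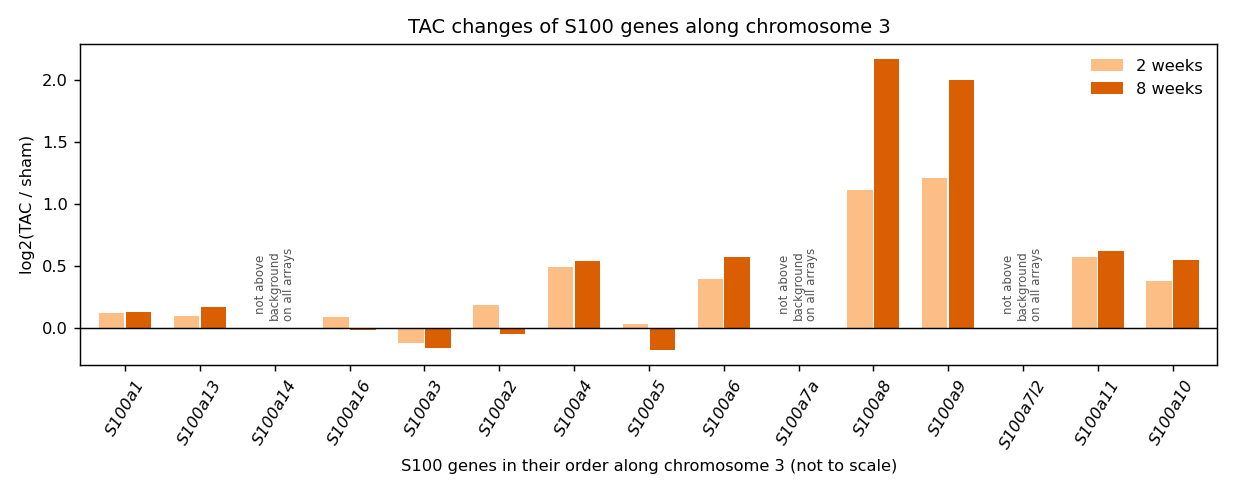
Bars show the log2 ratio of TAC to sham at 2 weeks (light) and 8 weeks (dark) for the S100 genes in their order along chromosome 3, without scale. Genes not well above background on all arrays have no bar. S100a5 stays near 0 between S100a4 and S100a6, and the highest bars are those of S100a8 and S100a9.

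The partners of the S100 proteins were examined from lists written for this purpose. Of 12 annexins, 11 were measured in each pair, and 2 were over 1.5-fold higher at 2 weeks (6.76% of all genes) and 3 at 8 weeks (7.24%), while 1 was over 1.5-fold lower at 2 weeks (3.33%) and 1 at 8 weeks (5.62%). Their median log2 change was 0.42 at 2 weeks and 0.27 at 8 weeks. Anxa2, the partner of S100a10, had 33.7 in sham and 48.0 in TAC hearts at 2 weeks, and 30.3 in sham and 46.5 in TAC hearts at 8 weeks, with log2 changes of 0.51 and 0.62. Anxa1, the partner of S100a11, had log2 changes of 0.68 and 0.83, and Anxa4 had 0.45 and 0.68. Anxa1 and Anxa2 were higher after TAC at both times, as were S100a10 and S100a11. Anxa11, a known partner of S100a6, was lower, with log2 changes of -0.41 and -0.43. Anxa8 had -1.56 at 2 weeks and 0.12 at 8 weeks, but its sham pools differed by -1.39. Anxa13 had -0.25 and -0.70.

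Of 9 receptors and adaptors for released S100 proteins, Ager, which encodes RAGE, was not well above background on any array. Tlr4 had 0.784 in sham and 0.914 in TAC hearts at 2 weeks, and 0.642 in sham and 1.21 in TAC hearts at 8 weeks, with log2 changes of 0.22 and 0.92. Cd14, the coreceptor of TLR4, had 0.71 and 0.91, and Cd33 had 0.48 and 0.28. Bsg, which encodes the S100A9 receptor basigin, had -0.35 and -0.16. The median of the list was 0.17 at 2 weeks and 0.12 at 8 weeks.

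Of 12 listed partners inside the cell, 10 were measured, with a median log2 change of -0.06 at 2 weeks and -0.04 at 8 weeks. None was over 1.5-fold higher, where 6.76% of all genes were at 2 weeks and 7.24% at 8 weeks. None was over 1.5-fold lower either (3.33% and 5.62% of all genes). With 10 genes, such counts lie near these shares. Myh9, the nonmuscle myosin bound by S100a4, had log2 changes of 0.43 and 0.36, while Cacybp, which encodes the calcyclin-binding protein, had -0.02 and -0.08. Fgf1, whose product is released with S100a13, had -0.45 and -0.19, and Kcnk3, whose channel is carried to the membrane with S100a10, had -0.22 and -0.39. Among 8 genes of calcium cycling and other S100a1 targets, 7 were lower after TAC at each time. For comparison, the median log2 change of all measured genes was 0.00 at 2 weeks and -0.01 at 8 weeks. None of the 8 was over 1.5-fold lower at 2 weeks (3.33% of all genes), and only Ryr2 was at 8 weeks (5.62%). Ryr2, the calcium release channel, had -0.15 and -0.63, Pln, or phospholamban, had -0.42 and -0.49, Atp2a2, the calcium pump of the sarcoplasmic reticulum, had -0.45 and -0.37, and Cacna1c had -0.49 and -0.13, and Ttn, the exception, had 0.02 and 0.08. The median log2 change of these 8 genes was -0.18 at 2 weeks and -0.23 at 8 weeks. That of the 6 cardiomyocyte markers, which share Ryr2 with them, was -0.17 at both times, with 4 of 6 lower at 2 weeks and 6 of 6 at 8 weeks. The summed signal of these markers was 7015 and 6687 in the sham pools and 6581 and 5908 in the TAC pools of 2 and 8 weeks, and their part in the changes of the targets was not tested. Of 15 other EF-hand calcium sensors, 1 was over 2-fold higher at 8 weeks (3.26% of all genes), Efhd2, with log2 changes of 0.57 and 1.02.

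**Figure D4:**
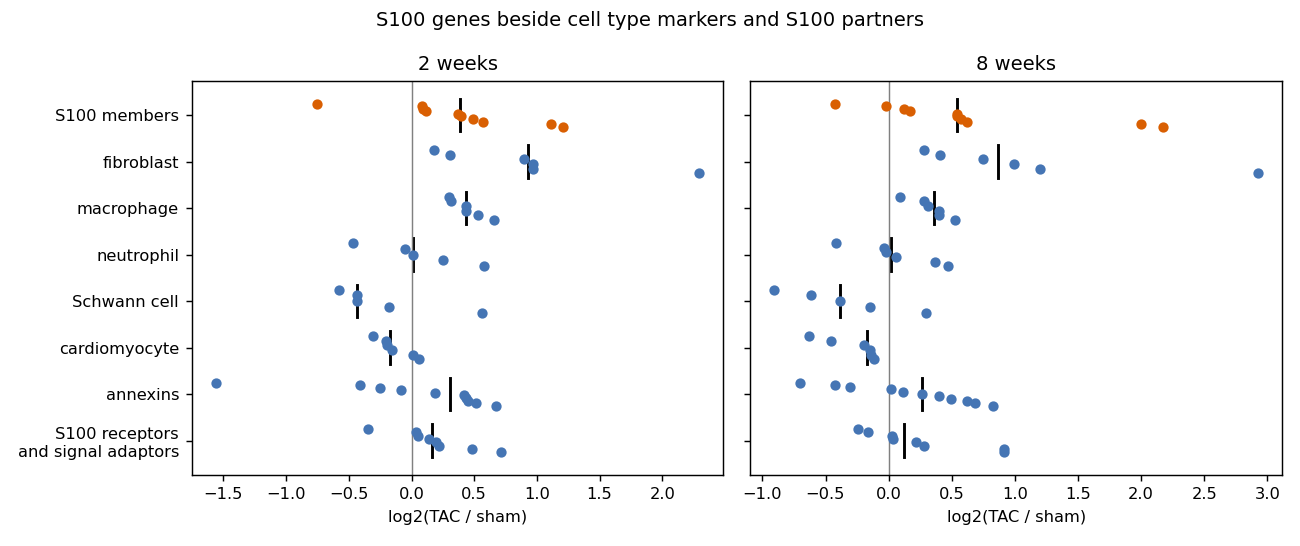
Log2 ratio of TAC to sham at 2 weeks (left) and 8 weeks (right), with 1 point per gene well above background on both arrays of the pair and a black line at the median of these points. The S100 members (orange) span from below 0 to above 1, all fibroblast and macrophage markers lie above 0, and the neutrophil markers lie on both sides of 0.

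Markers of cell types that express S100 genes moved as follows. The 6 fibroblast markers were all higher, with a median log2 change of 0.93 at 2 weeks and 0.87 at 8 weeks, from Postn with 2.29 and 2.92 to Dcn with 0.18 and 0.28. Their summed signal was 198 and 222 in the sham pools and 271 and 320 in the TAC pools of 2 and 8 weeks, of which the single probe of Dcn made up 143 and 167 in sham and 162 and 203 in TAC hearts. The 6 macrophage markers were all higher as well, with medians of 0.44 and 0.36. Their summed signals were 33.6 and 34.7 in sham and 42.0 and 43.7 in TAC hearts. Of these, the probe of Csf1r made up 27.0 and 27.1 in sham and 33.1 and 33.7 in TAC hearts. The 4 endothelial markers had medians of 0.21 and -0.07. These changes stand beside those of S100a4, S100a6, S100a10 and S100a11, and their part in them was not tested.

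Neutrophil markers, given beside S100a8 and S100a9, differed among themselves. Of 12 markers, 5 were well above background on all arrays, and the granule genes Ngp, Ltf, Mmp8 and Mmp9 and the receptor gene Cxcr2 on none. Ly6g had log2 changes of 0.25 and 0.37, Lcn2 had 0.58 and 0.47, and Camp had -0.46 and -0.42. Elane had 0.01 and -0.02, and Csf3r had -0.05 and 0.06. The probe signals were 6.77 to 7.42 for Elane and 273 to 332 for Csf3r. Whether these probes measure neutrophil RNA in heart tissue was not tested, and both genes are part of the median and the sum given next. The median of the markers measured on either array of the pair was 0.13 at 2 weeks and 0.06 at 8 weeks. Retnlg was not well above background in either sham pool but was in both TAC pools. Its signal was 0.0162 in sham and 0.0622 in TAC hearts at 2 weeks, and 0.0310 in sham and 0.125 in TAC hearts at 8 weeks. No fold is given, since the sham values were not well above background. At 2 weeks the TAC value was also close to 0.0600, the lowest signal well above background on the sham array. The summed signal of the 12 markers was 343 and 284 in sham and 332 and 295 in TAC hearts, of which the single probe of Csf3r made up between 273 and 332. The share of neutrophils or monocytes in the S100a8 and S100a9 signals was not tested.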

How the data were processed

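The data are 4 one-color microarrays, 1 per group, each with RNA pooled from 4 to 6 mice. The authors scanned each array and extracted spots in Agilent software, version 10.7.3.1 by the file headers and 9.1 by the submitters' processing notes, with probes annotated on mm9. As deposited, each spot has a processed intensity after background subtraction and detrending over the array, without normalization among arrays. A second deposited table multiplies this intensity by 1 constant per array, between 3.52 and 4.35, chosen in a way not given in the sources used here.

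From these files, log2 of the signal minus the array's 75th percentile over 55681 probes was computed, without outlier spots. Of the probes, 29358 were named through RefSeq and GENCODE accessions. For a gene with several probes the one with the highest mean signal was used. A gene counted as over 2-fold higher when TAC over sham exceeded 2 and the TAC spot stood well above background, and as lower by the mirror rule. With 1 array per group there was no test. The counting code was run on simulated data with changes well past the threshold and less noise than the dimmest probes show. This checks the code and not the calls of S100a8 or other dim genes. Members and lists were chosen with earlier results of these data known. Genes named were all members, the genes of each list with the largest changes, and the 3 genes nearest in pattern. S100a2, S100a3, S100a5, Anxa2, Anxa11, Cacybp, Csf1r, Dcn, Elane, Ttn, Retnlg and genes below background were named outside this rule, with values known. Alternatives were other scalings, normexp with an offset of 50 on the median signal with quantile normalization (limma 3.58.1, R 4.3.3), the deposited table, the mean of probes, outlier spots kept, other filters and a 1.5-fold threshold. Computations used Python 3.11.15, numpy 2.4.6 and pandas 2.3.3. The values of 1 listed marker gene are not reported here.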

Additional observations from a re-analysis of the deposited data

How the results depend on the processing

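The number of S100 genes over 2-fold higher at 2 weeks was 1 in place of 2 after normexp correction, since S100a8 fell under the threshold. With a 1.5-fold threshold 1 member was lower at 2 weeks in place of none. The median log2 change of the members at 8 weeks was 0.71 without normalization between arrays, where the median of all genes shifted by 0.17, so that the members stood 0.55 above it, as they did with the main scaling. The other counts and medians stayed within 1.5 times or within the spot noise under all alternatives run. For single members, 21 of 140 values moved by more than the SD between spots and 119 did not. The direction of 9 members was the same at both times under all 7 alternatives of scaling, background, probe and outlier spots, and that of S100a16 was the same at 2 weeks and turned at 8 weeks under 4. No replicate could be left out, and no block or pairing exists, because each group is 1 array. Signals near background and the number of pools limit the precision.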

Other observations

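S100g, which encodes calbindin-D9k, has 2 probes on the arrays. One was not well above background on 3 arrays but was in TAC hearts at 8 weeks. Its signal there was 0.226, compared with 0.0136 in sham hearts of that time. The other probe was not well above background on any array. The difference between these probes was not tested.

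Of 7 genes of the fused type, which join an S100 domain to a long repeat region and serve the skin barrier, 6 were not well above background on any array. The exception was Crnn, whose signal was 0.0749 in sham and 0.0704 in TAC hearts at 2 weeks, and 0.0901 in sham and 0.0482 in TAC hearts at 8 weeks, the last not well above background.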
